A study of Mus musculus with 8 samples.

Results

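Haematopoietic progenitor and megakaryocyte genes were examined in fluorescent cells that had been sorted out of embryonic mouse cortex and embryonic mouse lung at E13.5. The 9 genes were chosen by name: Runx1, Myb, Kit, Gata1, Nfe2, Pf4, Ppbp, Gp1bb and Gp9. All 9 were measured, among 18193 genes on the array, each through the probe set that names it alone and has the highest mean over the 8 arrays. The embryos came from homozygous Tie2-GFP transgenic mice, where green fluorescent protein (GFP) is made under the Tie2 (Tek) promoter of endothelium, and both tissues carried this transgene. There were 4 arrays of cortex, cleared of meninges and choroid plexus, and 4 of lung. Litters of 10 to 13 embryos were pooled for each array, so no value belongs to a single embryo. The arrays carry the sample numbers 72, 22, 19 and 18 in each tissue, and values below are given in that order. All values are log2 expression as deposited, differences are cortex minus lung, and SD is over the 4 arrays of a tissue.

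In the embryo, definitive blood stem and progenitor cells bud from haemogenic endothelium, a specialised vessel wall, under the transcription factor Runx1. Megakaryocytes arise from such progenitors under Gata1 and Nfe2, store chemokines such as Pf4 and Ppbp in granules, and shed platelets that carry the adhesion receptor formed by glycoproteins Ib, IX and V. Tie2 is itself made by some haematopoietic progenitors and macrophages as well as by endothelium, so a sort on Tie2-GFP does not take endothelial cells alone. In bulk samples fewer cells of a type and less RNA per cell cannot be told apart.

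Promoter sequence is shown for the granule chemokine genes, because they lie side by side and had the same highest arrays, and around the GATA matches, because Gata1, a GATA factor, is among the 9 genes. Ppbp (chr5:90768518-90770063) and Pf4 (chr5:90772435-90773383) are neighbours on the plus strand of chromosome 5, 2371 bases apart (RefSeq, GRCm38.p6). The 250 bases before each annotated start, from chr5:90768268-90768517 and chr5:90772185-90772434, read as follows, with capitals marking GGAA, the core that ETS factors bind, on either strand.
Ppbp: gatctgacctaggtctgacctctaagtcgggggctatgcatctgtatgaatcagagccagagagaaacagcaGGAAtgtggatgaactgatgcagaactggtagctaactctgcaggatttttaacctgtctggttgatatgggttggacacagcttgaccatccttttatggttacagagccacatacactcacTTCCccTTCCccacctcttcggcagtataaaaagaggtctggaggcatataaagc
Pf4: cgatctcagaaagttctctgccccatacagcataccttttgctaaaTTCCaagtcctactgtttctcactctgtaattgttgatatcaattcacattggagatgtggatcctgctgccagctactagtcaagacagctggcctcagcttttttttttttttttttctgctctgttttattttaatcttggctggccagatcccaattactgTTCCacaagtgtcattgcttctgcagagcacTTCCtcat
In a window of 300 bases (250 before and 50 after the start), GGAA occurred 4 times at each of these genes, but 96.0% of 32851 promoter windows hold it. A GATA motif (AGATAA or AGATAG, or either with T in place of the first letter, on either strand) occurred in 29.8% of all windows. Of the 8 genes with a promoter sequence, Pf4 and Gp1bb had 1 match each, shown in capitals within 30 bases at chr5:90772455-90772484 (plus strand) and chr16:18622408-18622437 (minus strand).
Pf4: actgggcaggcagtgaAGATAAaacgtgct
Gp1bb: gcacctccccgcCTATCAtaagggaacaag
The Gp1bb match is TGATAG on the strand opposite to the gene, and the match begins 22 bases before the annotated start. These matches are descriptions of the letters, not measured binding.

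Over all genes, 18.1% passed the threshold of 0.05 on the adjusted p of limma's test (Benjamini-Hochberg) and are named called here, 10.4% higher in cortex and 7.71% lower. Of the 9 genes, 2 were called higher in cortex (Gp1bb and Myb), 0 were called lower and 7 were not called. At an unadjusted p under 0.05, which 31.3% of all genes passed (16.0% higher in cortex and 15.3% lower), 2 of the 9 genes were higher (the same 2) and 1 was lower (Nfe2). The median difference of the 9 genes was -0.23, against -0.09 over all genes. All arrays of one tissue lay above all arrays of the other for 3 of the 9 genes, against 24.5% of all genes. The call of Myb ended without any 1 of the 8 arrays, and that of Gp1bb in none of those 8 fits. Shifting the arrays until their means over 26 pan-endothelial genes were equal moved the median gene to 1.14, and the differences of Runx1, Kit, Gata1, Nfe2, Pf4 and Gp9 then lay above 0 with none of these 6 called.

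**Figure D1:**
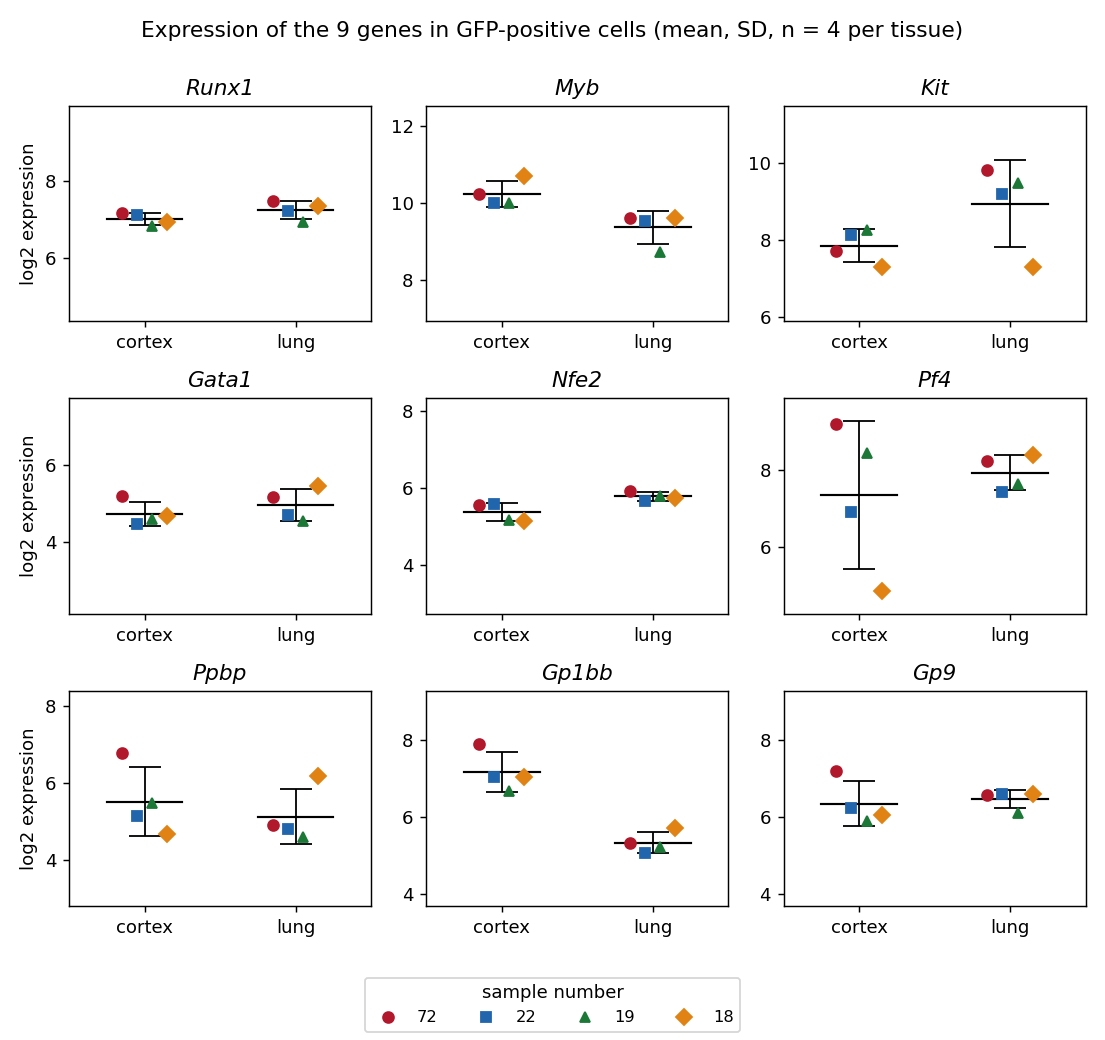
Log2 expression of each gene (vertical axis, every panel spans the same log2 range) in cortex and lung arrays, with a symbol for each sample number and the mean and SD of 4 arrays per tissue. Gp1bb and Myb separate with cortex higher, Nfe2 separates with cortex lower without being called, Pf4 spreads from 4.84 to 9.20 in cortex, and the lung array numbered 18 is low for Kit.

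The tissue labels were checked first, because the description field of the arrays numbered 19 and 18 names the other tissue than their titles. All 24 measured neural markers were called higher in the arrays titled cortex, with list means of 10.83 to 11.38 in cortex and 6.21 to 6.58 in lung. Pan-endothelial markers averaged 10.40 ± 0.97 in cortex and 11.63 ± 0.26 in lung, with 7 of 26 called lower and 0 higher. In cortex this list mean was 9.81, 11.15, 11.30 and 9.35, so the cortex arrays numbered 72 and 18 held the lower endothelial values. The neural and endothelial lists therefore moved with tissue beside every result below, and their part in those results was not tested. Array medians over all probe sets ran from 6.59 to 6.72, and median centring below used these. Over the 18193 genes, each read through its chosen probe set, array medians were less level. They ran from 7.41 (lung 22) to 8.02 (cortex 72), and the array numbered 72 had the highest in each tissue. The part of this offset in the results below was not tested. Precision is limited by having 4 arrays per tissue.

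Runx1, the factor that starts definitive blood formation from endothelium, was not called on any of its 6 probe sets. The chosen one measured 7.19, 7.12, 6.83 and 6.93 in cortex, against 7.49, 7.22, 6.94 and 7.37 in lung (difference -0.24, SE 0.16, adjusted p = 0.358). The groups overlapped, and the 95% interval ran from -0.61 to 0.13. Another probe set measured 6.21, 6.07, 6.44 and 6.89 in cortex, against 6.57, 8.41, 6.62 and 8.61 in lung. Here the lung arrays numbered 22 and 18 stood above all other arrays, and the difference of -1.15 was not called over all probe sets (adjusted p = 0.191). All 6 differences lay below 0, between -1.15 and -0.01.

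Myb, which maintains definitive progenitors, was called higher in cortex in the fit over genes, which tests 1 of its 3 probe sets. The chosen probe set measured 10.22, 10.00, 9.99 and 10.71 in cortex, against 9.62, 9.53, 8.74 and 9.61 in lung (1.81-fold, difference 0.86, SE 0.25, adjusted p = 0.0473). Every cortex array lay above every lung array. This probe set carries the suffix (x) that the array maker gives where probes may also match other sequences. The other probe sets differed by 0.08 (adjusted p = 0.915 over all probe sets) and 0.32 (0.566), with overlapping arrays. Their levels were much lower, at means of 4.89 and 5.80 in cortex and 4.81 and 5.48 in lung. The chosen probe set averaged 10.23 in cortex and 9.37 in lung. In the fit over all probe sets none of the 3 was called, the chosen one included (adjusted p = 0.0644), and the mean of the 3 gave 0.42 (adjusted p = 0.325).

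Kit, the receptor for stem cell factor on progenitors and mast cells, measured 7.73, 8.13, 8.26 and 7.31 in cortex, against 9.81, 9.19, 9.49 and 7.30 in lung. The lung array numbered 18 lay at the level of the lowest cortex array, and the other 3 lung arrays lay above all cortex arrays. That array was also the lowest lung array for 16 of 26 pan-endothelial markers and 15 of 19 mesenchymal and mural markers. The share over all genes was 30.4%. The part of these cell types in the Kit values was not tested. The difference of -1.09 (SE 0.52, 95% interval -2.27 to 0.09) was not called (adjusted p = 0.190). Without the lung array numbered 18 it was -1.64 and called (adjusted p = 0.00571). The second probe set measured 4.71, 6.53, 5.14 and 4.70 in cortex, against 6.95, 6.93, 7.68 and 6.30 in lung, with overlapping arrays, and it was called over all probe sets (3.24-fold lower in cortex, difference -1.70, adjusted p = 0.0430). Pan-endothelial scaling turned the difference of the chosen probe set to 0.13 (adjusted p = 0.841). The gene for its ligand, Kitl, averaged 10.03 ± 0.53 in cortex and 10.66 ± 0.49 in lung without a call (adjusted p = 0.221).

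Gata1, the zinc finger factor of erythroid cells and megakaryocytes, measured 5.19, 4.45, 4.59 and 4.68 in cortex, against 5.17, 4.69, 4.54 and 5.45 in lung. The arrays overlapped, and the difference of -0.23 was not called (95% interval -0.79 to 0.33, adjusted p = 0.545). Nfe2, the leucine zipper subunit required for platelet release, measured 5.54, 5.59, 5.17 and 5.15 in cortex, against 5.92, 5.65, 5.78 and 5.74 in lung. Every cortex array lay below every lung array, and the difference of -0.41 (SE 0.15) was not called (adjusted p = 0.102). By mean level Gata1 ranked low, at 16.8% of the way up all genes, and Nfe2 at 26.5%. Differences at such levels may be compressed.

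**Figure D2:**
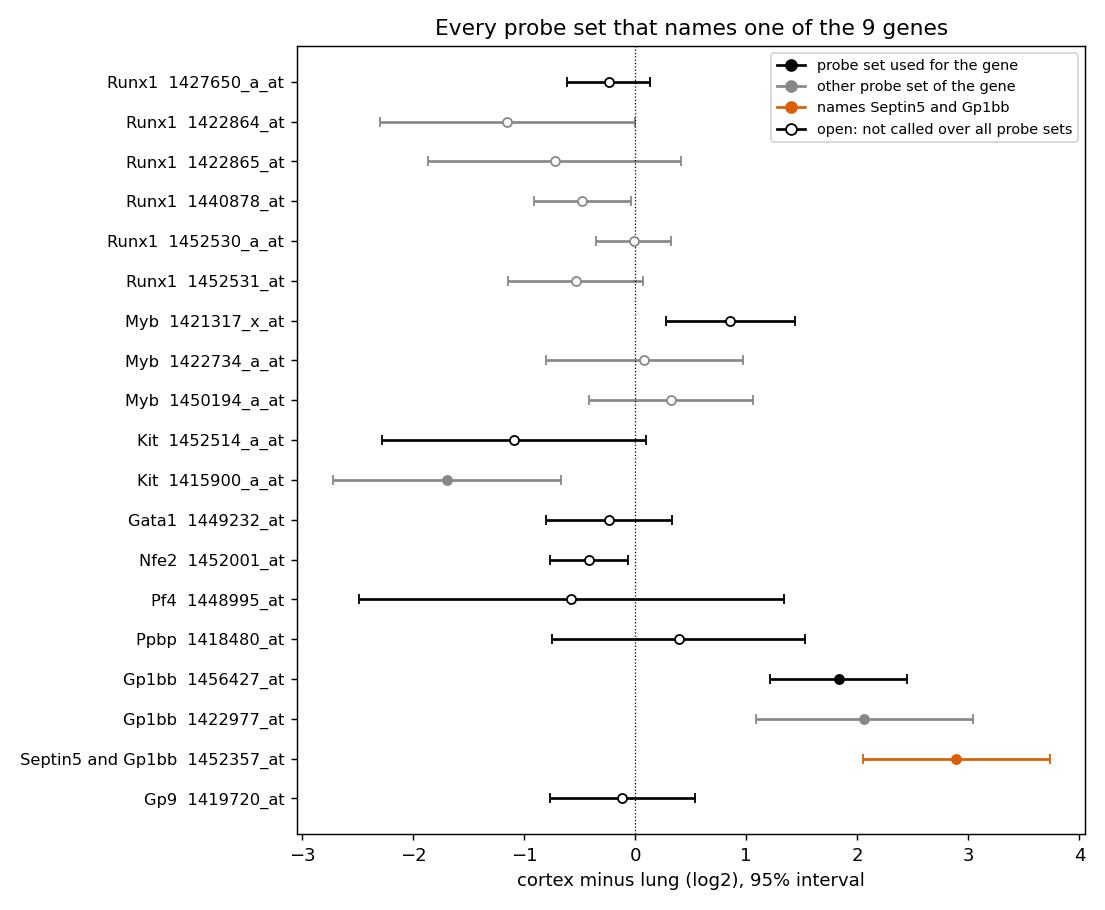
Cortex minus lung difference (horizontal axis, log2) with its 95% interval for each of the 18 probe sets naming 1 of the 9 genes alone and for 1 naming Septin5 and Gp1bb. Filled points are called over all probe sets: both Gp1bb probe sets and the shared one lie above 0, the second Kit probe set lies below 0, and the Myb, Runx1, Gata1, Nfe2, Pf4, Ppbp and Gp9 probe sets are open.

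Over all 45037 probe sets, 12.2% were called, 7.28% higher in cortex and 4.88% lower. Of the 18 probe sets that name 1 of the 9 genes alone, 2 were called higher, both of Gp1bb, and 1 lower, of Kit. Probe sets of a gene share its transcript and are not replicates. For 5 of the 9 genes there was a single probe set.

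Pf4 (platelet factor 4, Cxcl4), a chemokine of platelet granules that embryonic macrophages also make, varied more between cortex arrays than 99.9% of genes. It measured 9.20, 6.91, 8.43 and 4.84 in cortex, against 8.22, 7.43, 7.64 and 8.38 in lung. The cortex arrays lay on both sides of the whole lung range. The means of 7.35 ± 1.92 in cortex and 7.92 ± 0.46 in lung gave a difference of -0.57 that was not called (SE 0.83, adjusted p = 0.667), with a 95% interval from -2.47 to 1.32. Without the cortex array numbered 18 the difference was 0.26 (adjusted p = 0.776).

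The macrophage markers were also lowest on that cortex array. Their list mean was 8.28, 8.09, 8.60 and 6.01 in cortex, against 6.60, 6.16, 6.23 and 5.93 in lung, and 20 of the 23 had their lowest cortex value on the array numbered 18. Csf1r, the macrophage growth factor receptor, measured 11.31, 10.63, 11.18 and 6.89 in cortex, against 7.18, 5.50, 6.94 and 4.57 in lung. Pf4 lay between 7.43 and 8.38 on the lung arrays, where the macrophage mean was lower than on the other 3 cortex arrays. The summed intensity of the macrophage list (values taken out of log2 and added) ran from 3899 to 22614 in cortex and from 7123 to 8085 in lung. Of the 23 markers, 7 were called higher, 0 lower and 16 not. The shares over all genes were 10.4% higher and 7.71% lower. The macrophage markers of highest mean, Laptm5 (difference 1.24, adjusted p = 0.0570) and Stab1 (-1.08, adjusted p = 0.0687), were not called. Stab1 measured 10.96, 11.58, 11.62 and 9.98 in cortex, against 11.89, 12.06, 12.04 and 12.48 in lung. Every cortex array lay below every lung array for Stab1, and which cells gave its values was not tested. Laptm5 and Stab1 together made up 30.5% to 65.0% of the sum in cortex and 71.0% to 86.4% in lung. Without them the sum ran from 1365 to 13628 in cortex and from 1096 to 2181 in lung. The part of macrophages in the Pf4 values was not tested.

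Ppbp (pro-platelet basic protein, Cxcl7), the neighbouring granule chemokine gene, measured 6.78, 5.14, 5.48 and 4.66 in cortex, against 4.92, 4.79, 4.61 and 6.19 in lung. Its highest arrays were number 72 in cortex and number 18 in lung, the same arrays as for Pf4, and its lowest cortex array was number 18, also as for Pf4. The lowest lung arrays differed, number 19 for Ppbp and number 22 for Pf4. The difference of 0.39 (SE 0.50) was not called (adjusted p = 0.618), and it was -0.029 without the cortex array numbered 72. Pan-endothelial scaling gave 1.61 and a call (adjusted p = 0.0312), with a median gene at 1.14 and the same SE of 0.60 for each of the 9 genes.

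Gp9, the glycoprotein IX subunit of the platelet receptor for von Willebrand factor, measured 7.19, 6.23, 5.88 and 6.05 in cortex, against 6.55, 6.58, 6.10 and 6.58 in lung. The cortex array numbered 72 was the highest of all 8, the other 3 cortex arrays lay within or below the lung range, and the difference of -0.11 was not called (95% interval -0.76 to 0.53, adjusted p = 0.806). Of the 9 genes, 6 had their highest cortex value on the array numbered 72 (Runx1, Gata1, Pf4, Ppbp, Gp1bb and Gp9), against 38.0% of all genes and 15 of the 40 other megakaryocyte genes. Tubb1, the beta tubulin of platelets, named here after its values were seen, measured 7.59 on that array and 3.89 to 4.80 on the other cortex arrays, against 3.79 to 4.57 in lung. In lung, 4 of the 9 genes were highest on the array numbered 18 (Gata1, Pf4, Ppbp and Gp1bb), against 29.2% of all genes and 8 of the 40 other megakaryocyte genes. Another 4 were highest on the lung array numbered 72 (Runx1, Myb, Kit and Nfe2), against 41.4% of all genes.

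**Figure D3:**
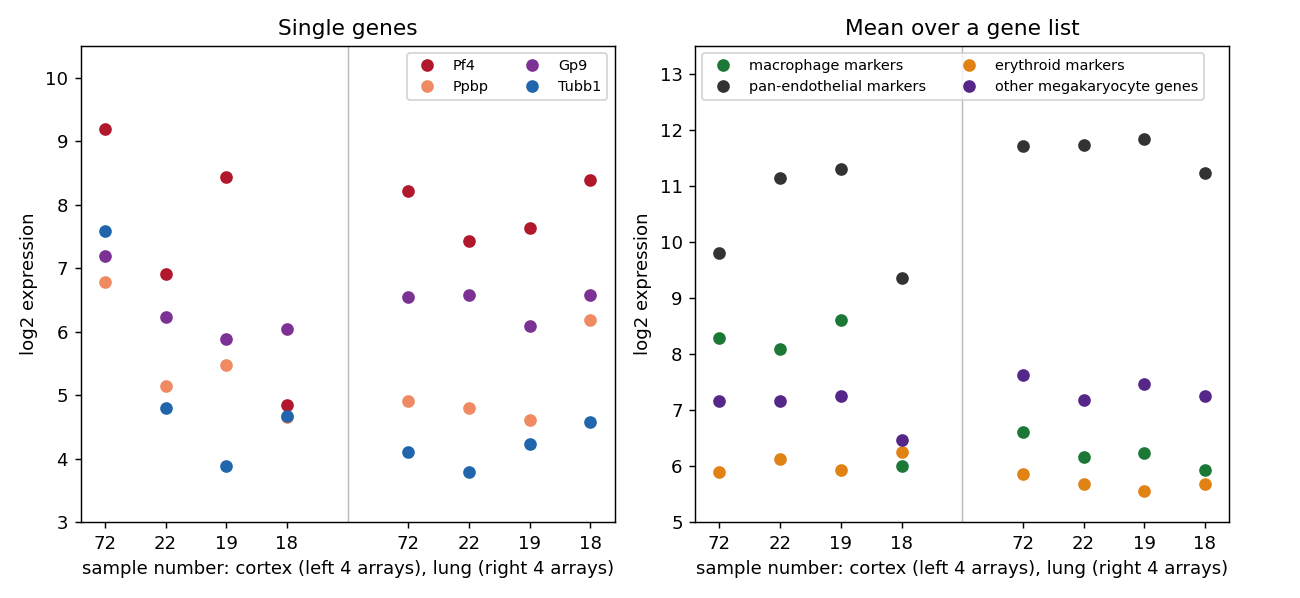
Log2 expression (vertical axis) on each array, for the genes Pf4, Ppbp, Gp9 and Tubb1 at left and for the means of 4 gene lists at right; the left 4 positions are cortex arrays and the right 4 are lung arrays, by sample number. Cortex 72 is the highest cortex array for all 4 genes, of which Tubb1 was picked after its values were seen. Of the 40 other megakaryocyte genes, 15 (37.5%) were highest on cortex 72, against 38.0% of all genes. Cortex 18 is the lowest cortex array for Pf4, Ppbp and the macrophage, pan-endothelial and other megakaryocyte means.

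Gp1bb, the beta chain of platelet glycoprotein Ib, had the largest difference of the 9 genes. It measured 7.91, 7.04, 6.70 and 7.04 in cortex, against 5.34, 5.07, 5.23 and 5.72 in lung (3.56-fold higher in cortex, difference 1.83, SE 0.27, adjusted p = 0.00195). Every cortex array lay above every lung array. Its second probe set measured 8.46, 6.73, 6.37 and 7.21 in cortex, against 5.66, 4.88, 4.87 and 5.10 in lung (4.18-fold, adjusted p = 0.0160 over all probe sets). Leaving out each array in turn gave differences of 1.58 to 1.99, each called.

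Gp1bb (chr16:18620319-18622403) overlaps the annotated span of its neighbour Septin5 (chr16:18621811-18629938), a septin abundant in neurons, by 593 bases. A further probe set, which names both genes and was not used for Gp1bb, measured 10.24, 9.25, 9.26 and 9.79 in cortex, against 7.56, 5.99, 7.01 and 6.41 in lung (7.42-fold, adjusted p = 0.00134 over all probe sets). Its cortex arrays also lay above all lung arrays. Transcripts of these overlapping genes could be mixed in the Gp1bb values, and which transcript each probe set measured was not tested. The other subunits of the receptor were not called: Gp9, as above, and Gp5, the glycoprotein V subunit, with 4.96 ± 0.37 for cortex and 4.99 ± 0.21 for lung (adjusted p = 0.935). By mean level Gp5 ranked low, at 18.6% of the way up all genes, where differences may be compressed. Gp1ba was not analysed here.

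The genes whose centred profiles over the 8 arrays lay closest to that of Gp1bb were Plch2, a phospholipase C (root mean square difference 0.19 log2 units), 1700086L19Rik (0.21) and Tmem74b (0.23). For Myb they were Tmem184c (0.18), Stra6l (0.20) and Wscd2 (0.20). All 8 arrays of each profile include the difference between tissues, so closeness here is a description only.

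Known partners of the 9 genes were mostly lower in cortex where they were called, with 1 of 18 measured called higher, 5 lower and 12 not called, and a median of -0.45. The shares over all genes were 10.4% higher and 7.71% lower. Lyl1, a helix-loop-helix factor that is close kin of Tal1, was 6.62-fold lower, at 7.68, 8.45, 8.61 and 6.42 in cortex, against 10.55, 10.48, 10.45 and 10.58 in lung (adjusted p = 0.00293). Tal1, the partner of Gata1 in the core haematopoietic complex, was 4.24-fold lower (cortex 8.72 ± 0.82, lung 10.81 ± 0.27, adjusted p = 0.00570). Lyl1 and Tal1 are also expressed in endothelium, and both, like Gata2, are also counted among the progenitor genes. Lyl1 and Tal1 had their lowest cortex value on the array numbered 18, as had 22 of 26 pan-endothelial markers. The other 3 called lower, named after their values were seen, were Gata2 (difference -1.84), the Gata1 cofactor Zfpm1 (-1.59) and the Nfe2 partner Mafk (-0.62). The partner called higher was Runx1t1, a corepressor known from its fusion with RUNX1 in human leukaemia, with 11.76 ± 0.36 for cortex and 9.89 ± 0.40 for lung (3.66-fold, adjusted p = 0.00114). Pan-endothelial scaling left 1 called lower and gave 5 called higher, when 4849 of all 18193 genes were called higher and 136 lower. The count of 5 lower became 3 without any 1 of cortex 72, cortex 18, lung 72 and lung 19, and 2 were higher without lung 72. The partner of Runx1, Cbfb, averaged 11.00 ± 0.28 in cortex and 11.27 ± 0.70 in lung without a call (adjusted p = 0.608).

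**Figure D4:**
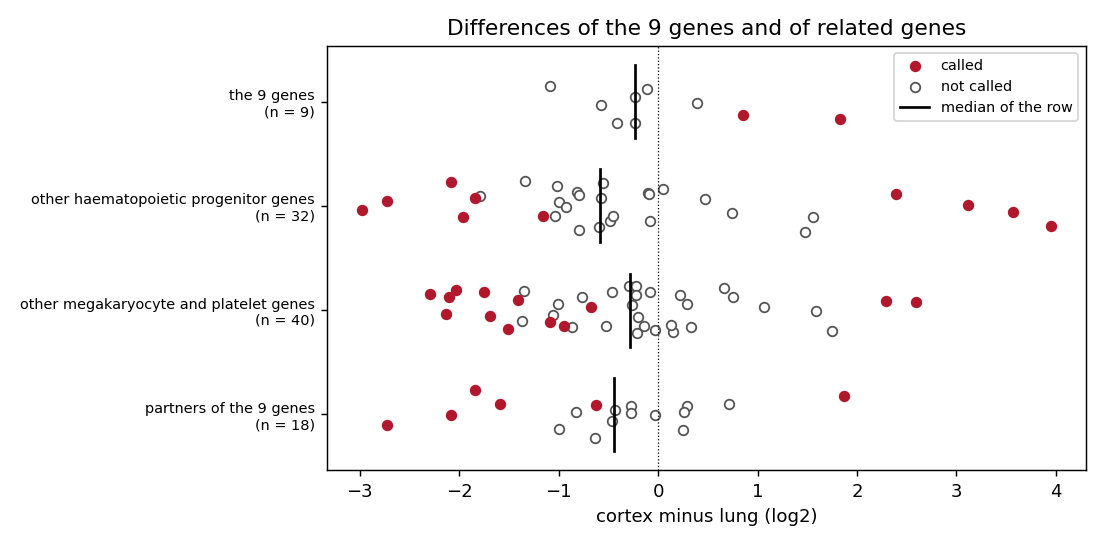
Cortex minus lung difference (horizontal axis, log2) of the 9 genes and of 3 lists of related genes, 1 point per gene, filled where called, with the median of each row as a bar. The medians run from -0.58 to -0.23, against -0.09 over all genes, and each related list holds called genes on both sides of 0. Pan-endothelial scaling put the median of all genes at 1.14, with 4849 of 18193 genes called higher and 136 lower. The progenitor, megakaryocyte and partner lists then held 8, 9 and 5 genes called higher and 2, 0 and 1 called lower.

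Of 40 other measured megakaryocyte and platelet genes, 2 were called higher in cortex, 11 lower and 27 not, with a median of -0.28. The shares over all genes were 10.4% higher and 7.71% lower. The genes higher were Sla, an adaptor of blood cells, with 8.44 ± 0.57 for cortex and 5.85 ± 0.53 for lung (6.04-fold, adjusted p = 0.00103), and P2ry12, the ADP receptor of platelets that is also a microglial gene, with 6.80 ± 1.19 for cortex and 4.51 ± 0.51 for lung (4.91-fold, adjusted p = 0.0218). P2ry12 measured 7.16, 7.29, 7.72 and 5.05 in cortex, lowest on the array that was also lowest for the macrophage markers. Rab27b, which acts in granule secretion, was 4.91-fold lower, with 4.79 ± 0.44 for cortex and 7.08 ± 0.79 for lung (adjusted p = 0.00438). The next largest among the 11, named after their values were seen, were Mmrn1 (difference -2.13) and Vwf (-2.10). All 24 measured neural markers were called higher and 7 of 26 pan-endothelial markers lower. Their part in these 2 counts was not tested. The count of genes lower was 6 without lung 19 and 7 without cortex 18 or lung 72. The count of genes higher was 1 without cortex 72, cortex 22, cortex 19 or lung 19. Pan-endothelial scaling gave 9 higher and 0 lower, when 4849 of all 18193 genes were called higher and 136 lower.

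Of 32 other progenitor genes, 4 were called higher in cortex, 6 lower and 22 not, with a median of -0.58. The shares over all genes were 10.4% higher and 7.71% lower. All 24 measured neural markers were called higher and 7 of 26 pan-endothelial markers lower, and their part in these counts was not tested. The largest differences were those of Csf1r (15.5-fold higher, adjusted p = 0.0293), the adhesion receptor Adgrg1 and the actin regulator Coro1a. Adgrg1 was 11.9-fold higher, with 10.11 ± 0.45 for cortex and 6.54 ± 0.72 for lung (adjusted p = 0.000291). Coro1a was 8.68-fold higher, with 10.80 ± 0.27 for cortex and 7.69 ± 1.09 for lung (adjusted p = 0.00255). In cortex Coro1a measured 11.16, 10.52, 10.87 and 10.67, whereas Csf1r measured 6.89 on the array numbered 18. Which cells gave the Adgrg1 and Coro1a values was not tested. Csf1r is also counted in the macrophage list. The 6 genes called lower, named after their values were seen, were Hoxa9 (difference -2.98), Lyl1 (-2.73), Tal1 (-2.08), Procr (-1.96), Gata2 (-1.84) and Meis1 (-1.16). Pan-endothelial scaling gave 8 higher and 2 lower, when 4849 of all 18193 genes were called higher and 136 lower.

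Markers of other cell types were counted in the same way, beside 10.4% of all genes called higher and 7.71% lower. Of 19 measured erythroid markers, 3 were called higher, 1 lower and 15 not, with a median difference of -0.05 and 11 of the 19 lower in cortex by their means. Their list mean was 6.05 ± 0.17 in cortex and 5.70 ± 0.12 in lung. Their summed intensity ran from 8352 to 15352 in cortex and from 2740 to 4301 in lung, of which Hbb-y alone made up 71.1% to 78.5% in cortex and 58.4% to 73.3% in lung. The embryonic globins Hbb-y (3.43-fold higher, adjusted p = 0.00235) and Hba-x (6.17-fold higher, adjusted p = 0.0170) were the erythroid markers with the highest means. The other measured globins, named after their values were seen, were not called. These were Hbb-bh1 (difference 1.06, adjusted p = 0.281) and Hba-a1 (-0.25, adjusted p = 0.401). Hbb-bh1 measured 5.86, 8.10, 5.52 and 8.13 in cortex, against 5.28 to 6.10 in lung, with overlapping arrays. The other called markers, named after their values were seen, were Add2 (higher, difference 2.64) and Hemgn (lower, -0.57). Add2 measured 9.99, 9.02, 9.09 and 10.00 in cortex, against 6.79, 6.46, 6.94 and 7.35 in lung. Which cells gave the Add2 values was not tested. Of 11 mast cell markers, 1 was called higher (Hpgds, 2.62-fold) and 1 lower (Hdc, 1.67-fold, named after its values were seen), with summed intensities of 509 to 728 in cortex and 514 to 692 in lung. Of 11 granulocyte markers, 1 was called higher (Prtn3, 2.52-fold) and 0 lower, with sums of 292 to 400 in cortex and 272 to 364 in lung. Of 11 lymphoid markers, 0 were called higher and 1 lower (Cd79b, 2.66-fold), with sums of 395 to 587 in cortex and 750 to 1394 in lung. Of 19 mesenchymal and mural markers, 1 was called higher and 12 lower, with sums of 2207 to 4305 in cortex and 17399 to 39634 in lung. The values carry no detection call, so no marker can be stated as absent.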

How the data were processed

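The values are log2 expression by probe set of a genome-wide Affymetrix mouse array, as deposited by the authors; the submitters' processing notes name RMA and the affy package, with versions not given in the sources used here. Per the labels' protocols, 15 to 30 ng of RNA was linearly amplified before hybridisation. RMA compresses differences near its lower end, and its between-array normalization sets each difference against all other probe sets. All 8 value columns were mapped by sample identifier, and tissue was taken from the titles. After removal of 64 control probe sets, 45037 remained: 34945 named 1 gene, 932 several and 9160 were unnamed here (34741 matched RefSeq by gene number). The comparison used lmFit and eBayes of limma 3.58.1 (R 4.3.3) without a replicate block, two-sided, adjusted by Benjamini-Hochberg over all genes or all probe sets, and the fit was tested on simulated data. Whether p-values cover more than the spread between these pooled litters was not tested. The members and lists were chosen with earlier results of these data known. Named genes are the 9 members, the 3 called genes of largest difference per related list, the markers of highest mean (not all are printed) and the 3 closest profiles of each called member. Alternatives were the sample number as a block, leaving out arrays, 2 scalings, array weights, a filter on dim genes, other probe set summaries and an intensity trend.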

Additional observations from a re-analysis of the deposited data

Results flagged for a closer look

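The arrays of each tissue were screened for 40 genes named by the rule, 80 groups of 4 in all, for a single array far from the other 3; chance alone gives about 1 such group in 20. Myb on the lung array numbered 19 lay at 8.74, below the next lung array at 9.53. Gp9 on the same array lay at 6.10, below the next at 6.55. Csf1r on the cortex array numbered 18 lay at 6.89, below the next cortex array at 10.63.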

How the results depend on the processing

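Gp1bb kept its direction and its call in all 17 alternatives that tested it (1.58 to 3.05); it was not tested where dim genes were left out. Myb kept its direction in 18 and its call in 5: it was not called without 1 array (0.64 to 0.94, adjusted p from 0.0562 to 0.115), without both arrays numbered 18 (0.78) or 72 (0.94), with arrays centred on their medians (0.78), as the mean of its probe sets (0.42) or over all probe sets (0.86). Kit was called without lung 18 (-1.64), without both arrays numbered 18 (-1.46) and with array weights (-1.47). The 9 genes then counted 1 called higher without 1 array, without both arrays numbered 18 or 72, with median centring, with dim genes left out (2 genes tested), with mean probe sets and over all probe sets; 0 to 1 was called lower without 1 array, and 1 without both arrays numbered 18 and with array weights.

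Pan-endothelial scaling turned Runx1 to 0.99, Kit to 0.13, Gata1 to 0.99, Nfe2 to 0.81, Pf4 to 0.65 and Gp9 to 1.11, none called. Leaving out 1 array gave -1.19 (without cortex 72) to 0.26 (without cortex 18) for Pf4, -0.029 (without cortex 72) to 0.74 (without lung 18) for Ppbp, and -0.40 (without cortex 72) to 0.037 (without cortex 19) for Gp9. Without both arrays numbered 18, Pf4 was 0.42 and Gp9 0.024; without both numbered 72, Ppbp was -0.099; with array weights, Gp9 was 0.037. The cause was not tested for these.

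Over all genes, 1888 were called higher and 1403 lower. The counts were 4849 and 136 with pan-endothelial scaling, 2204 and 2233 with array weights, 1660 and 1732 with median centring, 3278 and 2197 over all probe sets, and 1393 to 1966 higher and 956 to 1274 lower without 1 array; 929 were lower without both arrays numbered 18 and 675 without both numbered 72. Other progenitor genes had 3 to 5 higher and 4 to 7 lower without 1 array, 3 lower without both arrays numbered 72, and 8 higher and 2 lower with pan-endothelial scaling. Other megakaryocyte genes had 1 to 3 higher and 6 to 10 lower without 1 array, 1 higher and 5 lower without both numbered 72, 5 lower without both numbered 18, 9 higher and 0 lower with pan-endothelial scaling, and 0 higher and 3 lower without dim genes (fewer genes tested). Partner genes had 1 to 2 higher and 3 to 5 lower without 1 array, 2 higher with array weights, 5 higher and 1 lower with pan-endothelial scaling, 3 lower without both numbered 18 and over all probe sets, and 2 lower without both numbered 72.

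The labels do not say what a shared sample number marks. Deviations of same-numbered cortex and lung arrays from their tissue means correlated at 0.335, -0.162, 0.00886 and 0.307 for numbers 72, 22, 19 and 18, and not every array correlated best with its own number, so the numbers were not treated as pairs. With the number as a replicate block, 2 of the 9 genes were called higher (Myb adjusted p = 0.0328, Gp1bb 0.00701) and 0 lower, with 1801 genes higher and 1342 lower over all.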
